A study of Mus musculus with 15 samples.

Results

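The 7 genes described here encode chains of the fibrillar collagens I, III, V and XI: Col1a1, Col1a2, Col3a1, Col5a1, Col5a2, Col5a3 and Col11a1. They were taken by symbol from a table of 36727 genes measured in mouse hearts, in which each symbol had 1 gene identifier, and all 7 passed the filter on low values (10 or more normalized counts in 3 or more hearts) that 16690 genes passed. RNA came from whole hearts of 4 SIRT5OE TAC, 4 WT TAC, 3 SIRT5OE sham and 4 WT sham mice, all males of 4 to 8 months at surgery, taken 4 weeks later. In transverse aortic constriction (TAC) a band around the aorta makes the left ventricle pump against a raised pressure, and sham mice had the operation without the band. SIRT5OE mice carry a SIRT5 cDNA under the constitutive CAGGS promoter, whose STOP cassette was removed throughout the body by Sox2-Cre, and WT mice were their littermates. All SIRT5OE mice descend from 1 embryonic stem cell clone, so the strain is 1 transgenic line, and the cDNA lies in the 3′UTR of Col1a1, one of the genes measured here. The study asked how raised SIRT5 changes the response of the heart to pressure overload. SIRT5 is an enzyme that removes acyl groups from lysines of proteins in mitochondria, cytosol, peroxisomes and nucleus.

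Fibrillar collagens are made as procollagen chains that wind into a triple helix in the endoplasmic reticulum, are secreted, lose their end propeptides and assemble into cross-banded fibrils. In the heart, fibroblasts make most of them, and their accumulation between muscle cells is the substance of fibrosis. Collagen I, built of Col1a1 and Col1a2 chains, forms thick and stiff fibrils, and collagen III, built of Col3a1 chains, forms finer ones. The chains of collagen V (Col5a1, Col5a2, Col5a3) and collagen XI (Col11a1) nucleate fibrils and limit their width, collagen V mainly alongside collagen I and collagen XI mainly in cartilage.

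The positions below are those of GENCODE vM21 on GRCm38. Col1a1 (ENSMUSG00000001506) lies on the forward strand at chr11:94936224-94953042, and Col1a2 (ENSMUSG00000029661) on the forward strand at chr6:4504814-4541544. Col3a1 (ENSMUSG00000026043, chr1:45311538-45349706, forward) and Col5a2 (ENSMUSG00000026042, chr1:45374321-45503282, reverse) stand tail to tail with 24614 bases and 0 annotated genes between them. Col5a1 (ENSMUSG00000026837) lies at chr2:27886425-28039514 and Col11a1 (ENSMUSG00000027966) at chr3:114030540-114220718, both forward, and Col5a3 (ENSMUSG00000004098) at chr9:20770050-20815067, reverse. The genes share an exon pattern: 76.6% (Col5a1) to 90.0% (Col1a2) of their inner coding exons have a length that is a multiple of 9 bases, the length that encodes 1 Gly-X-Y triplet of the helix, against 14.3% of 158845 inner coding exons of all protein-coding genes. Exons of 54 bases number 21 in Col1a1 and up to 31 in Col5a3 and Col11a1. In spite of this likeness, only 2 stretches of 31 bases are shared between members (Col5a1 and Col5a3). The share of a member's 31-base stretches found in any other gene ran from 0.0459% (Col1a1) to 2.18% (Col5a1). These stretches were counted in GENCODE vM21 transcripts, whereas the paper aligned its reads to Ensembl cDNA. Of the stretches of Col3a1, 111 also occur in Gm47302, a gene that overlaps it on the same strand.

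The promoters of Col1a2, Col3a1 and Col5a3 are shown because they belong to genes with different values after TAC: the interstitial chains Col1a2 and Col3a1, which rose several-fold, and Col5a3, which did not pass the test. Each is the 250 bases before the gene's start in RefSeq on GRCm38.p6, written 5′ to 3′ on the strand of the gene, and capitals mark CCAAT (bound by the factor NF-Y and known for its role in collagen I promoters), GGGCGG (the GC box of Sp1), CAGAC (the core of SMAD binding elements) and TATAAA on either strand. In the order given they lie at chr6:4505368-4505617 (forward, inside the longer GENCODE gene), chr1:45311288-45311537 (forward) and chr9:20815068-20815317 (reverse).
Col1a2: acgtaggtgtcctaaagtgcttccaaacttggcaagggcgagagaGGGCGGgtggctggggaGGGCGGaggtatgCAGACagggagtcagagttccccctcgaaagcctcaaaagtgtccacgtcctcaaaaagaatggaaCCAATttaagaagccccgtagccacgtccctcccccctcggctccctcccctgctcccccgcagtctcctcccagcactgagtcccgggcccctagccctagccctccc
Col3a1: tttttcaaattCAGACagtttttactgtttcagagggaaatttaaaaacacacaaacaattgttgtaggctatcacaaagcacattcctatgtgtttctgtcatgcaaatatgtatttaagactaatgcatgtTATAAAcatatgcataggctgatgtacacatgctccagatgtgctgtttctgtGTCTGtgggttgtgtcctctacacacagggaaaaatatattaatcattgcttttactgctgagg
Col5a3: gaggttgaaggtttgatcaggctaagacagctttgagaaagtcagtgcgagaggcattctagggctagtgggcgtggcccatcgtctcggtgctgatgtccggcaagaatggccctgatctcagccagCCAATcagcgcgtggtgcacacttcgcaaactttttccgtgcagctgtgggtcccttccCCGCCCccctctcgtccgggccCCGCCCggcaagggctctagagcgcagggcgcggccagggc

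RefSeq windows were at hand for 5 of the 7 genes (all but Col1a1 and Col5a2). CCAAT stood in Col1a2, Col5a3 and Col11a1, and in 33.9% of the 32851 mouse promoter windows of the same length. GGGCGG stood in Col1a2, Col5a1, Col5a3 and Col11a1 (32.7% of all windows), CAGAC in Col1a2, Col3a1, Col5a1 and Col11a1 (42.2%), and TATAAA in Col3a1 (12.4%). The base composition differed too, with 35.2% G and C in the Col3a1 window against 62.0% in that of Col1a2 and 62.8% in that of Col5a3. These matches describe the letters only.

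Sirt5, the gene overexpressed, was read at 30433 to 43932 normalized counts in SIRT5OE hearts and at 1574 to 2366 in WT hearts, with no overlap. Normalized counts summed to 56233957 to 74282028 per heart. The median share of mitochondrially encoded transcripts was 31.2% in SIRT5OE TAC, 24.4% in WT TAC, 34.5% in SIRT5OE sham hearts and 35.6% in WT sham hearts. Cardiomyocyte markers (Myh6, Ryr2, Tnnt2, Actn2, Pln) were abundant in every heart. The 7 collagen genes together took a median of 0.134% of the counts of nuclear genes in SIRT5OE TAC, 0.329% in WT TAC, 0.0499% in SIRT5OE sham hearts and 0.0472% in WT sham hearts. The sum of collagen counts ran from 44300.2 to 146436 in SIRT5OE TAC hearts and from 88587 to 223262 in WT TAC hearts, so these groups overlapped, while both lay above every sham heart (21921 to 25669).

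**Figure D1:**
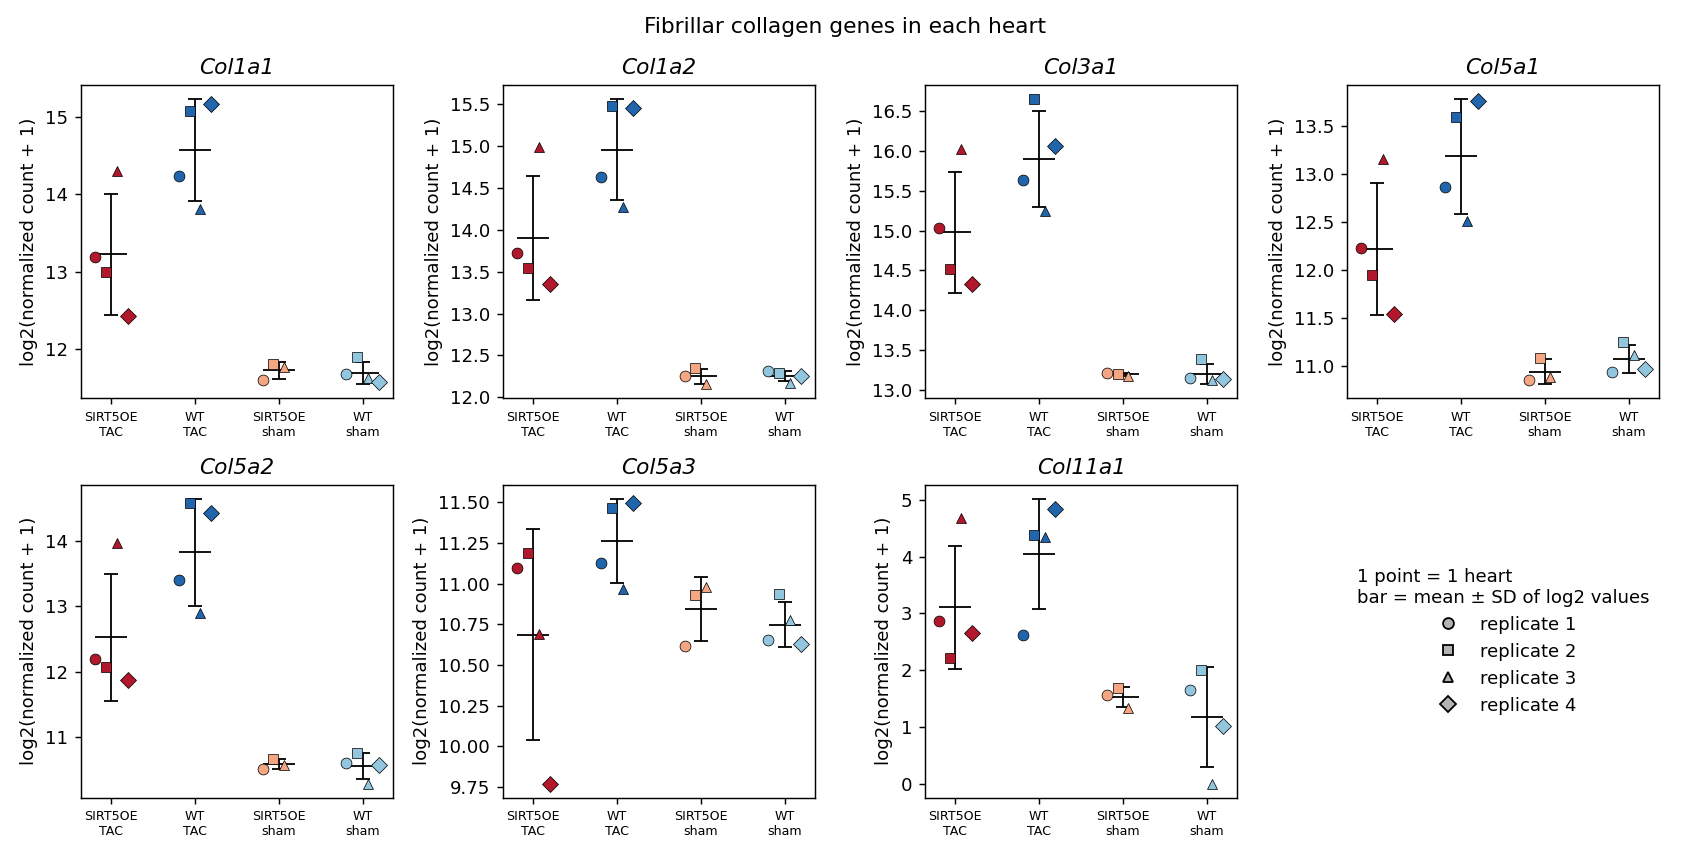
Normalized counts of the 7 genes on a log2(count + 1) axis, 1 point per heart, marker shape for the replicate number, and bars for the mean ± SD of the log2 values. Col1a1 reaches 5517 to 20106 normalized counts in SIRT5OE TAC hearts and 14363 to 36588 in WT TAC hearts, against 3048 to 3814 over all sham hearts, and replicate 3 of SIRT5OE TAC stands above its group in every panel but that of Col5a3.

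Pressure overload in WT hearts raised the main interstitial collagens and the Col5a1 and Col5a2 chains of collagen V. Of the 7 genes, 6 were higher in WT TAC than in WT sham hearts at an adjusted p under 0.05 and 0 were lower, where 17.3% of the 16690 tested genes were higher by that rule. The median log2 fold change of the 7 was 2.71, beside -0.01 over all tested genes. Col11a1, one of the 6, passed the filter on low values only through TAC hearts, so its higher value there was set by the filter.

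Col1a1, the chain present in 2 copies in each collagen I molecule, had 19339.5, 34519, 14363 and 36588 normalized counts in the 4 WT TAC hearts, against 3263, 3814, 3159 and 3048 in the 4 WT sham hearts. Every WT TAC heart lay far above every WT sham heart, although replicates 2 and 4 held about as much again as replicates 1 and 3. The limma estimate was a log2 fold change of 2.88 (SE 0.323, 95% interval 2.19 to 3.56, adjusted p = 3.1e-05), and the means stood in a ratio of 7.89.

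Col1a2, the partner chain, had 25501, 45713, 19795 and 44843 normalized counts in WT TAC hearts, against 5078, 5011, 4602 and 4884 in WT sham hearts. The same WT TAC hearts were high and low as for Col1a1, and the sham hearts hardly differed. Its log2 fold change was 2.71 (SE 0.300, adjusted p = 2.95e-05 by limma).

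Col3a1, the single chain of collagen III and the most abundant of the 7 genes, had 50913, 103137, 38978 and 68484 normalized counts in WT TAC hearts, against 9098, 10704, 8925 and 8999 in WT sham hearts. The groups did not overlap, and here replicate 2 of WT TAC stood above replicate 4. The log2 fold change was 2.70 (SE 0.306, adjusted p = 3.26e-05 by limma).

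Among the collagen V chains the response was unequal. Col5a2 had 10858, 24627, 7604 and 22099 normalized counts in WT TAC hearts, against 1565, 1737, 1252 and 1526 in WT sham hearts. With a log2 fold change of 3.27 (SE 0.398, adjusted p = 5.1e-05 by limma) and a ratio of means of 10.7, this was the largest estimate among the members with more than a few counts. Col5a1, which every collagen V molecule contains, had 7493, 12424, 5829 and 13935 normalized counts in WT TAC hearts, against 1967, 2443, 2229 and 2012 in WT sham hearts. Its groups did not overlap either, at a log2 fold change of 2.11 (SE 0.291, adjusted p = 0.000108 by limma).

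Col5a3, known as a more tissue-restricted chain, had 2239, 2823, 1998 and 2885 normalized counts in WT TAC hearts, against 1609, 1957, 1753 and 1583 in WT sham hearts. The lowest WT TAC heart lay just above the highest WT sham heart. The log2 fold change of 0.51 (SE 0.233, 95% interval 0.02 to 1.01) did not pass the adjusted test in the fit of all hearts (adjusted p = 0.1), whereas a fit of the WT hearts alone gave an adjusted p of 0.0172 by limma and the fit without SIRT5OE TAC replicate 4 one of 0.0119.

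Col11a1, a chain best known from cartilage, was near the limit of detection. It had 5.17, 19.7, 19.2 and 27.6 normalized counts in WT TAC hearts, against 2.15, 3.01, 0 and 1.02 in WT sham hearts. All 4 WT TAC hearts exceeded the sham hearts, replicate 1 only narrowly, and the limma log2 fold change on the scale of count + 1 was 2.88 (SE 0.684, adjusted p = 0.00433). Of the cartilage markers Acan, Col2a1, Matn1, Chad and Sox9, 2 of the 4 tested passed as higher in WT TAC hearts (Acan and Sox9), Acan with its filter met through TAC hearts alone, as for Col11a1, and the cartilage matrix gene Matn1 was at 0 in every WT TAC heart. The summed cartilage markers ran from 416 to 661 normalized counts in WT TAC and from 106 to 178 in WT sham hearts, and their part in the Col11a1 values was not tested.

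**Figure D2:**
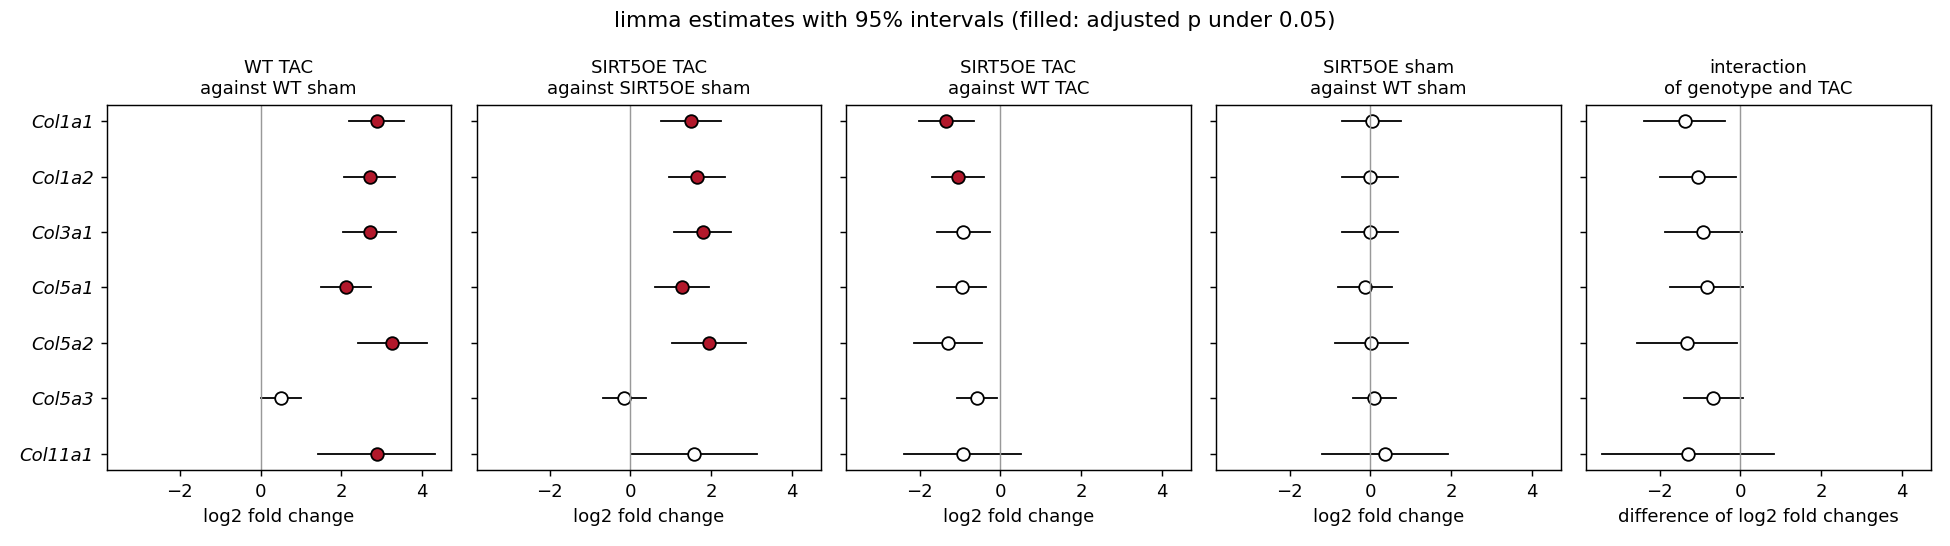
The limma log2 fold change of each gene (point) with its 95% interval (line) in 4 comparisons, and the difference of log2 fold changes for the interaction. Filled points passed an adjusted p under 0.05: 6 genes in WT TAC against WT sham, 5 in SIRT5OE TAC against SIRT5OE sham, 2 in SIRT5OE TAC against WT TAC, and 0 in each of the other panels.

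In SIRT5OE hearts, TAC raised collagens I and III and the Col5a1 and Col5a2 chains as well, by smaller estimates. At an adjusted p under 0.05, 5 of the 7 genes were higher in SIRT5OE TAC than in SIRT5OE sham hearts and 0 were lower, where 3.12% of tested genes were higher. The median log2 fold change of the members was 1.58, beside -0.01 over all tested genes.

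Col1a1 had 9298, 8151, 20106 and 5517 normalized counts in SIRT5OE TAC hearts, against 3102, 3579.7 and 3480.0 in SIRT5OE sham hearts. All 4 TAC hearts lay above the 3 sham hearts, but replicate 3 held more than double the count of any other SIRT5OE TAC heart and replicate 4 was closest to sham. The log2 fold change was 1.5 (SE 0.349, 95% interval 0.76 to 2.24, adjusted p = 0.0245 by limma). Col1a2 had 13499.8, 12002, 32608 and 10492 normalized counts in SIRT5OE TAC hearts, against 4873, 5201 and 4583 in SIRT5OE sham hearts. Again replicate 3 stood far above the rest without the groups overlapping, at a log2 fold change of 1.65 (SE 0.324, adjusted p = 0.0113 by limma).

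Col3a1 had 33608, 23477, 66857 and 20673 normalized counts in SIRT5OE TAC hearts, against 9469, 9404 and 9203 in SIRT5OE sham hearts. Its sham hearts were the most uniform of any member, with a coefficient of variation of 1.48%, and every TAC heart exceeded them more than 2-fold. The log2 fold change of 1.79 (SE 0.331) had the smallest adjusted p of the 7 genes in this comparison (0.00833 by limma).

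Col5a1 had 4819, 3954, 9182 and 2987 normalized counts in SIRT5OE TAC hearts, against 1849, 2179 and 1900.1 in SIRT5OE sham hearts. The groups stayed apart, and the log2 fold change was 1.28 (SE 0.314, adjusted p = 0.0299 by limma). Col5a2 had 4688, 4309, 16003 and 3753 normalized counts in SIRT5OE TAC hearts, against 1459, 1633 and 1529 in SIRT5OE sham hearts. Replicate 3 of SIRT5OE TAC was here more than 3-fold above the next heart of its group, and the log2 fold change was 1.94 (SE 0.43, adjusted p = 0.0201 by limma).

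Col5a3 departed from the other members. It had 2192, 2330.1, 1656 and 873 normalized counts in SIRT5OE TAC hearts, against 1570.0, 1950.2 and 2022 in SIRT5OE sham hearts. The groups overlapped, replicate 4 of SIRT5OE TAC was the lowest of all hearts, and replicate 3 was not high for this gene. The log2 fold change of -0.16 (95% interval -0.69 to 0.38, adjusted p = 0.764 by limma) turned to 0.15 when replicate 4 of SIRT5OE TAC was left out. Col11a1 had 6.27, 3.65, 24.7 and 5.29 normalized counts in SIRT5OE TAC hearts, against 1.96, 2.19 and 1.52 in SIRT5OE sham hearts. Only replicate 3 of SIRT5OE TAC reached 10, and the log2 fold change of 1.58 did not pass (95% interval 0.01 to 3.15, adjusted p = 0.225 by limma).

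These 5 calls depended on which hearts and settings entered the fit. Without SIRT5OE TAC replicate 3, Col5a1 did not pass (adjusted p = 0.0718 by limma). With SIRT5OE sham replicate 1 or replicate 3 left out, 1 gene passed, and with replicate 2 left out, 2 did. Calls were lost across the whole table in these fits. With all hearts 4.98% of tested genes were called in either direction, and 1.84% without SIRT5OE TAC replicate 3. Without SIRT5OE sham replicates 1, 2 and 3 the shares were 0.938%, 1.8% and 0.758%. The call of Col3a1 held in all 25 alternatives tried (adjusted p = 0.000402 to 0.0494).

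Between the TAC groups, both chains of collagen I were lower in SIRT5OE hearts. At an adjusted p under 0.05, 2 of the 7 genes were lower in SIRT5OE TAC than WT TAC hearts and 0 were higher, where 3.43% of tested genes were lower. The estimates of all 7 lay below 0, with a median of -0.96 beside 0.00 over all tested genes. Of the 7, 6 had an unadjusted p under 0.05 by limma, as had 28.9% of all tested genes. In whole-heart RNA, fewer cells of a type and less RNA per cell cannot be told apart.

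Col1a1 averaged 10768 ± 6424 normalized counts in SIRT5OE TAC and 26203 ± 11020 in WT TAC hearts (SD, n = 4 each), a ratio of means of 0.411. Of the SIRT5OE TAC hearts, 3 lay below every WT TAC heart, and replicate 3, at 20106, lay above the lower pair of WT TAC hearts. The log2 fold change was -1.35 (SE 0.323, 95% interval -2.03 to -0.66, adjusted p = 0.034 by limma). Only SIRT5OE hearts carry the transgene in the 3′UTR of Col1a1. For this gene an effect of the insertion and one of raised SIRT5 cannot be told apart. Col1a2 averaged 17150.2 ± 10378 in SIRT5OE TAC and 33963 ± 13276 in WT TAC hearts, with the same overlap through replicate 3, and its log2 fold change of -1.06 (SE 0.300) passed narrowly (adjusted p = 0.0471 by limma).

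The other members had values on the same side without passing. Col5a2 averaged 7188 ± 5889 normalized counts in SIRT5OE TAC and 16297 ± 8331 in WT TAC hearts, with a log2 fold change of -1.30 (95% interval -2.15 to -0.46, adjusted p = 0.055 by limma). Col5a1 gave -0.96 (95% interval -1.58 to -0.35, adjusted p = 0.0535) and Col3a1 -0.92 (95% interval -1.57 to -0.27, adjusted p = 0.069). Col5a3 gave -0.58 (adjusted p = 0.12) and Col11a1 -0.94 (adjusted p = 0.381). The unadjusted intervals of all members but Col11a1 lay below 0.

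Replicate 3 of SIRT5OE TAC was the highest heart of its group for 6 of the 7 genes, and replicate 4 the lowest for 6. Without replicate 3, 5 genes passed: Col1a1 (-1.70, adjusted p = 0.00231), Col1a2 (-1.42, 0.00252), Col5a2 (-1.78, 0.00313), Col5a1 (-1.28, 0.00508) and Col3a1 (-1.27, 0.00511), all by limma on log2 values. In that fit 16.4% of all tested genes were called in either direction, against 7.24% with all hearts. Without WT TAC replicate 3, the lowest WT TAC heart for 6 of the 7 genes, 5 passed as well, where 20.3% of all tested genes were called. Leaving out the highest heart of the lower group, or the lowest of the higher group, widens the difference by construction. Without WT TAC replicate 2 or 4, or without SIRT5OE TAC replicate 1, 2 or 4, 0 passed. In those fits 0.0301% to 1.15% of all tested genes were called, so calls were lost across the whole table. Without any single sham heart of either genotype 1 member passed, where 3.25% to 4.93% of all tested genes were called. A fit of the TAC hearts alone called 0 of the 7 and 3 genes in all, with an adjusted p of 0.184 for Col1a1 and 0.194 for Col1a2. The estimates moved as well. As each heart was left out in turn, the log2 fold change of Col1a1 ran from -1.70 to -1.08, that of Col3a1 from -1.27 to -0.67, that of Col5a1 from -1.28 to -0.74, that of Col11a1 from -1.47 to -0.64 and that of Col5a3 from -0.74 to -0.27.

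**Figure D3:**
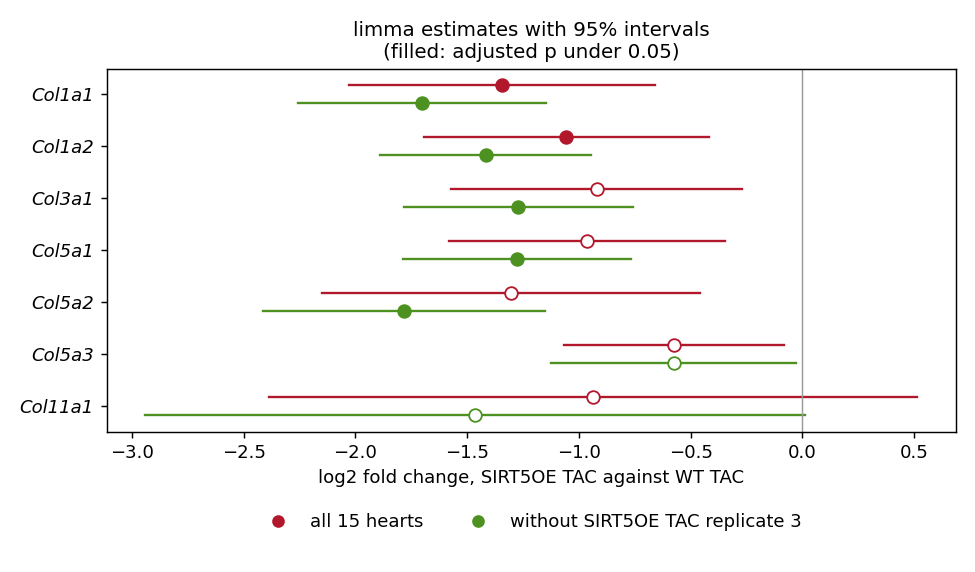
The limma log2 fold change of each gene between SIRT5OE TAC and WT TAC hearts with its 95% interval, from all hearts and without SIRT5OE TAC replicate 3. Filled points passed an adjusted p under 0.05: 2 genes with all hearts and 5 without that heart, where Col5a2 moves from -1.30 to -1.78 and Col5a3 stays at -0.58. As each heart was left out in turn, the number called ran from 0 to 5.

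In the absence of pressure overload no difference in the level of any collagen gene was detected between SIRT5OE and WT hearts. None of the 7 passed the limma test between SIRT5OE sham and WT sham hearts (0 called, where 0.018% of tested genes were called). At an unadjusted p under 0.05 there were 0 of the 7 as well, beside 2.56% of tested genes. The log2 fold changes ran from -0.13 (Col5a1) to 0.36 (Col11a1), and the members' median was 0.03. For Col1a1, whose 3′UTR holds the transgene, the values were 3102, 3579.7 and 3480.0 in SIRT5OE sham hearts, against 3263, 3814, 3159 and 3048 in WT sham hearts. The groups overlapped throughout, and the log2 fold change was 0.03 with a 95% interval of -0.71 to 0.77. A fit of the sham hearts alone, whose spread is smaller than that of TAC hearts, gave the same estimate with an interval of -0.17 to 0.23. Which allele of Col1a1 the reads came from was not analysed here.

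The difference between the TAC responses of the 2 genotypes was tested as an interaction. It called 0 of the 7 genes by limma and 0.0% of all tested genes, although 2206 genes, 3 of the members among them, had an unadjusted p under 0.05. For Col1a1 the difference of log2 fold changes was -1.38 (SE 0.475, 95% interval -2.39 to -0.37, unadjusted p = 0.0105, adjusted p = 0.349). Col5a2 gave -1.33 (unadjusted p = 0.0377) and Col1a2 -1.05 (unadjusted p = 0.0302), and the other 4 ran from -1.30 (Col11a1) to -0.67 (Col5a3) with intervals that included 0. The smaller estimates in SIRT5OE hearts are therefore not shown to differ from those in WT hearts at this threshold. The comparisons share hearts: WT TAC hearts enter both the WT response and the comparison of TAC groups, and SIRT5OE TAC hearts enter that comparison and the SIRT5OE response.

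Ratios between members within a heart do not depend on scaling between hearts. Of 6 ratios compared in 4 ways (24 exact two-sided permutation tests), none could pass after adjustment: the design allows no p below 0.0286 with 4 against 4 hearts or 0.0571 with 3 SIRT5OE sham hearts, and no adjusted p below 0.0571 over the 24 tests. The smallest adjusted p was 0.137. The values are therefore a description of the hearts.

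The balance within collagen V differed between TAC and sham hearts in both genotypes. The log2 ratio of Col5a2 over Col5a1 was 0.53, 0.99, 0.38 and 0.67 in WT TAC hearts, against -0.33, -0.49, -0.83 and -0.40 in WT sham hearts. In SIRT5OE TAC hearts it was -0.04, 0.12, 0.80 and 0.33, against -0.34, -0.42 and -0.31 in SIRT5OE sham hearts. Thus Col5a2 counts exceeded Col5a1 counts in 7 of 8 TAC hearts and in 0 of 7 sham hearts, a difference of means of 1.16 in WT (exact p = 0.0286, the smallest possible) and of 0.66 in SIRT5OE hearts (exact p = 0.0571, the smallest possible). The log2 ratio of Col5a3 over Col5a1 had a difference of means of -1.43 between SIRT5OE TAC and SIRT5OE sham (exact p = 0.0571) and of -1.60 between WT TAC and WT sham hearts (exact p = 0.0286), in each case without overlap. This ratio did not overlap between the sham groups either, at -0.24, -0.16 and 0.09 in SIRT5OE sham hearts, against -0.29, -0.32, -0.35 and -0.35 in WT sham hearts (difference 0.22, exact p = 0.0571, the smallest possible, adjusted p = 0.137).

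The ratio of Col5a1 to Col1a1 did not overlap between the TAC groups. The log2 ratio of Col5a1 over Col1a1 was -0.95, -1.04, -1.13 and -0.88 in SIRT5OE TAC hearts, against -1.37, -1.47, -1.30 and -1.39 in WT TAC hearts. Replicate 3 of SIRT5OE TAC, high in both genes, still lay with its own group (difference 0.38, exact p = 0.0286, adjusted p = 0.137). Both TAC groups lay below their sham hearts, which ran from -0.87 to -0.72 in SIRT5OE and from -0.73 to -0.50 in WT hearts. The log2 ratio of Col1a2 over Col1a1 was 0.54, 0.56, 0.70 and 0.93 in SIRT5OE TAC hearts, against 0.40, 0.41, 0.46 and 0.29 in WT TAC hearts. These groups did not overlap either (difference 0.29, exact p = 0.0286, adjusted p = 0.137), while the same ratio in sham hearts differed by -0.03 between SIRT5OE and WT with overlap. The log2 ratio of Col3a1 over Col1a1 averaged 1.76 in SIRT5OE TAC and 1.33 in WT TAC hearts and overlapped (exact p = 0.0571). In log2 ratio to Col1a2 and to Col5a1, Col1a1 counts thus had lower values in SIRT5OE TAC than WT TAC hearts without overlap, at adjusted p-values that the exact tests could not bring under 0.05. The transgene lies in the 3′UTR of Col1a1 in SIRT5OE hearts only, and its part in these ratios was not tested. The log2 ratio of Col11a1 over Col5a1 had overlapping groups in every comparison and changed sign with the pseudocount.

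**Figure D4:**
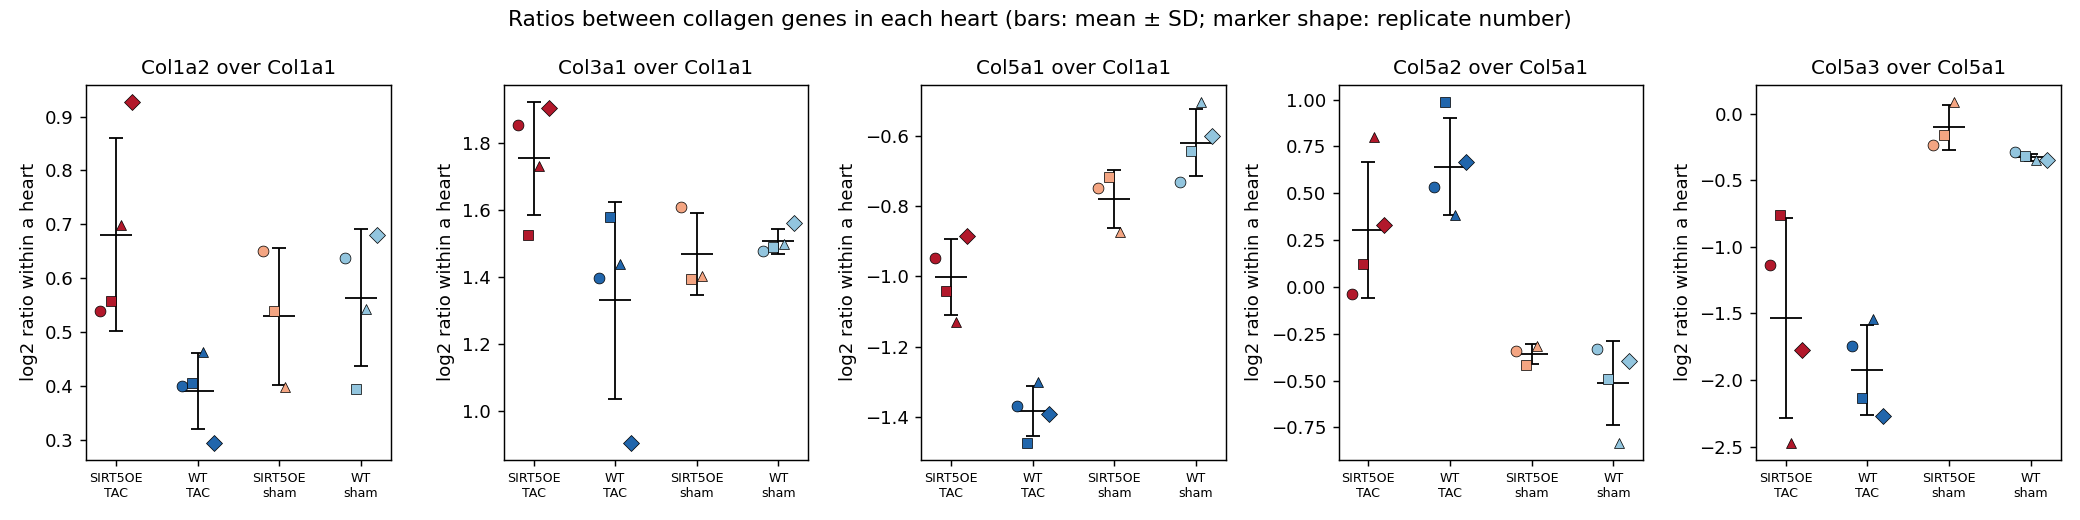
Log2 ratios between pairs of collagen genes within each heart, 1 point per heart with marker shape for the replicate number, and bars for the mean ± SD. Col5a1 over Col1a1 lies between -1.13 and -0.88 in SIRT5OE TAC hearts and between -1.47 and -1.30 in WT TAC hearts, and Col5a2 over Col5a1 is above its sham hearts in both TAC groups.

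Levels of different genes were compared as normalized counts per kb of the longest coding transcript of each. Col3a1 was first in all groups, at 6498 ± 3812 per kb in SIRT5OE TAC, 11750.2 ± 5021 in WT TAC, 1682 ± 24.9 in SIRT5OE sham hearts and 1695 ± 153 in WT sham hearts (SD). Col1a2 was second, at 3207, 6351, 914 and 915 per kb in the same order of groups, and then came Col1a1, at 1816, 4419, 571 and 560.0. In sham hearts these 3 levels did not overlap, whereas in each TAC group the ranges of neighbours in the order overlapped. The collagen V chains changed places: Col5a3 ranked 6 in both TAC groups (288 per kb in SIRT5OE and 406 in WT) and 4 in both sham groups (302 and 282), while Col5a2 ranked 4 in both TAC groups (1085 and 2460) and 6 in both sham groups (232 and 229). In WT sham hearts the ranges of Col5a3 and Col5a1 overlapped, as did those of Col5a1 and Col5a2. Such ranges do not compare 2 genes within a heart. Within WT sham hearts the ratio of Col5a3 to Col5a1 counts ran only from 0.787 to 0.818. At transcript lengths of 6119 and 8406 bases, Col5a3 thus lay above Col5a1 per kb in each WT sham heart. Col11a1 was last throughout, at no more than 3.59 per kb in any heart.

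**Figure D5:**
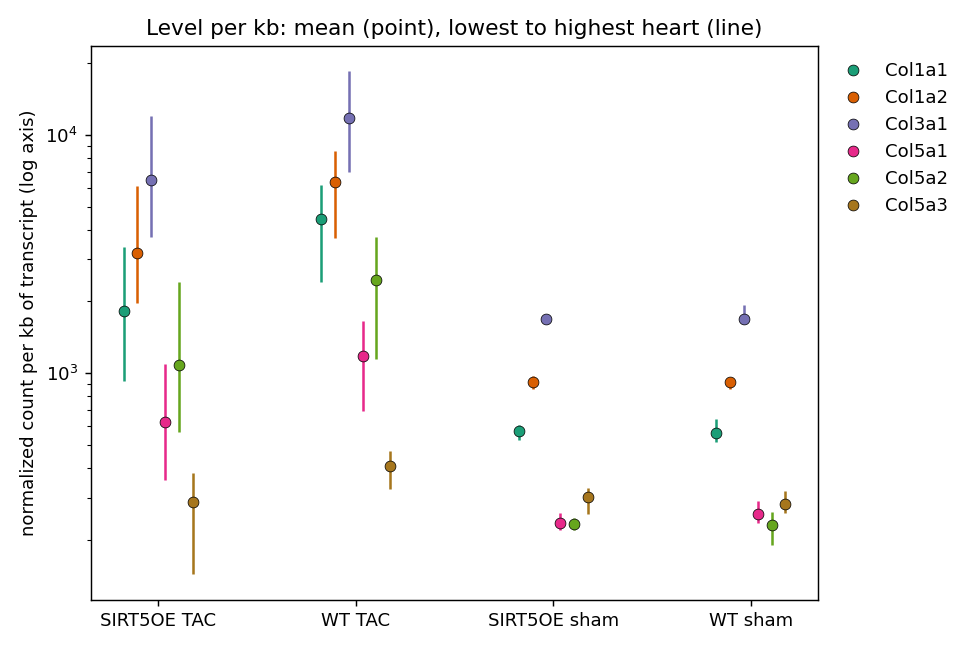
Normalized counts per kb of transcript on a log axis for 6 of the genes (Col11a1, under 4 per kb, is left out), with the mean as a point and the lowest to highest heart as a line. Col3a1, Col1a2 and Col1a1 keep their order in all 4 groups, and Col5a3 lies above Col5a2 in both sham groups and below it in both TAC groups.

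The genes that modify, process, cross-link and bind these collagens were counted over whole lists. The counts below stand beside these shares of all tested genes. In WT TAC against WT sham, 33.7% were called in either direction and 17.3% as higher. In SIRT5OE TAC against SIRT5OE sham the shares were 4.98% and 3.12%. Between the TAC groups, 7.24% were called in either direction and 3.43% as lower in SIRT5OE TAC. Of 19 genes of chain modification and folding, 16 rose and 2 fell in WT TAC against WT sham hearts (median log2 fold change 0.65), 2 rose in SIRT5OE TAC against SIRT5OE sham, and 1 was higher and 4 were lower in SIRT5OE TAC against WT TAC. P4ha3, among the 16, had at most 8.57 normalized counts in WT sham and 10.6 in SIRT5OE sham hearts. It could not meet the filter without TAC hearts, so its higher value there was in part set by the filter. P4ha1, a prolyl 4-hydroxylase subunit, averaged 3909 ± 844 normalized counts in SIRT5OE TAC, 6222 ± 1036 in WT TAC, 2467 ± 443 in SIRT5OE sham hearts and 2691 ± 443 in WT sham hearts, and was lower between the TAC groups (log2 fold change -0.68, adjusted p = 0.0342 by limma). Serpinh1, the collagen chaperone HSP47, was lower there too (-0.63, adjusted p = 0.0317), as were the lysyl hydroxylase Plod3 (-0.82, adjusted p = 0.0317) and the prolyl 3-hydroxylase family member P3h3 (-0.66, adjusted p = 0.0367).

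Of 8 genes of propeptide processing, 5 rose and 2 fell in WT TAC, 3 rose in SIRT5OE TAC, and 1 was higher and 2 were lower between SIRT5OE TAC and WT TAC. Adamts2, which cuts the amino-terminal propeptide, rose in both genotypes (log2 fold change 2.09 in WT and 1.38 in SIRT5OE). Pcolce, which enhances cleavage of the carboxy-terminal one, and Bmp1, the protease that makes that cut, were lower in SIRT5OE TAC than WT TAC hearts (-0.82 and -0.63, adjusted p = 0.0348 and 0.0367 by limma). Tll2, a relative of Bmp1 read at under 100 normalized counts, went the other way: 39.4 ± 20.4 in SIRT5OE TAC and 7.60 ± 4.97 in WT TAC hearts.

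All 5 cross-linking oxidases rose in WT TAC (median log2 fold change 2.42), 2 of 5 rose in SIRT5OE TAC, and 2 were lower in SIRT5OE TAC against WT TAC. Lox, lysyl oxidase itself, averaged 2325 ± 3095 normalized counts in SIRT5OE TAC, 9453 ± 7578 in WT TAC, 229.6 ± 20.1 in SIRT5OE sham hearts and 209 ± 28.5 in WT sham hearts. Its SD was above its mean in SIRT5OE TAC and close to it in WT TAC hearts, and the difference between them did not pass (log2 fold change -2.32, adjusted p = 0.0549 by limma). Loxl3 and Loxl1 did pass (-1.72 and -0.93, adjusted p = 0.0441 and 0.0469).

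Of 14 genes of the fibril surface and of fibril assembly, 11 rose and 1 fell in WT TAC and 10 rose in SIRT5OE TAC, while 1 was higher and 1 lower between SIRT5OE TAC and WT TAC. Postn, the matricellular protein periostin, had log2 fold changes of 4.93 in WT and 3.54 in SIRT5OE hearts. The proteoglycan Bgn rose in both (2.81 and 2.01) and was lower in SIRT5OE TAC than WT TAC hearts (-0.99, adjusted p = 0.0495 by limma), and Col14a1, a collagen that coats fibrils, rose in both (2.39 and 1.77). Ogn, another small proteoglycan, fell by 0.60 in WT TAC and was higher in SIRT5OE TAC than WT TAC hearts (0.53, adjusted p = 0.0345).

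Among 9 collagen receptors 5 rose in WT TAC and 2 in SIRT5OE TAC, and 2 were lower between SIRT5OE TAC and WT TAC: Mrc2, which takes up collagen fragments (-0.92, adjusted p = 0.0345 by limma), and Ddr1, a collagen-binding tyrosine kinase (-0.61, adjusted p = 0.0378). Lair1, an inhibitory receptor of leukocytes, rose in both genotypes (1.31 in WT and 0.96 in SIRT5OE). Of 7 collagen-cleaving enzymes, 4 rose and 1 fell in WT TAC and 2 rose in SIRT5OE TAC, Mmp2 and Ctsk among both. One of the 4, the neutrophil collagenase Mmp8, met the filter through TAC hearts alone, and Mmp14, a collagenase of the cell membrane, was lower in SIRT5OE TAC than WT TAC hearts (-0.79, adjusted p = 0.034). Of 14 genes of TGF-beta signalling, the chief inducer of collagen synthesis in fibroblasts, 11 rose and 1 fell in WT TAC, 4 rose and 1 fell in SIRT5OE TAC, and 4 were lower in SIRT5OE TAC than WT TAC hearts. The ligands Tgfb2 (-1.35, adjusted p = 0.0367) and Tgfb1 (-0.76, adjusted p = 0.0337) were among those 4, with the latent TGF-beta binding protein Ltbp2 (-2.20, adjusted p = 0.0407), whereas Tgfb3, at -0.64, did not pass (adjusted p = 0.0501). In SIRT5OE sham against WT sham hearts 0 genes of these lists were called, and the interaction called 0. As for the members, adjusted p-values just under 0.05 between the TAC groups rest on the fit of all hearts, and in the fit of the TAC hearts alone 3 genes of the whole table passed.

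Of the 4 other fibrillar collagens, 3 were tested. Col27a1, a cartilage collagen, rose in WT TAC (634 ± 275 normalized counts, against 229 ± 40.6 in WT sham hearts, log2 fold change 1.37, adjusted p = 0.00106 by limma). Col11a2 had 81.7 ± 35.0 in WT TAC and 93.6 ± 27.1 in WT sham hearts and did not pass in any comparison. Col2a1 averaged 12.5 in WT TAC and 3.01 in WT sham hearts and did not pass, and Col24a1, with 15.04 at most in any heart, was not tested.

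Markers of activated fibroblasts moved with the collagen genes, heart by heart. Their summed normalized counts were 30732, 26999.9, 174141 and 23052 in SIRT5OE TAC hearts, against 107436, 195939.8, 69849 and 203712 in WT TAC hearts. Replicate 3 of SIRT5OE TAC, the heart that was high in collagen, was the one that overlapped the WT TAC hearts. Of the 8 markers 7 passed as higher with TAC in both genotypes, all but Fap. Of all tested genes, 17.3% were higher with TAC in WT and 3.12% in SIRT5OE hearts. One of the 7, Cthrc1, met the filter through TAC hearts alone (at most 8.47 normalized counts in any sham heart), so its higher value was set by the filter. Of the 8, 4 were lower in SIRT5OE TAC than WT TAC hearts, and Postn, Ltbp2 and Fap also stand in the lists above. Markers of resident fibroblasts were mixed. Of the 7, 4 rose and 2 fell in WT TAC, 2 rose in SIRT5OE TAC, and 1 was higher and 2 were lower in SIRT5OE TAC than WT TAC hearts. Their sum ran from 63419 to 80749 in SIRT5OE TAC and from 66335 to 98994 in WT TAC hearts, against 67523 to 78367 in SIRT5OE sham and 65454 to 73177 in WT sham hearts. Most of that sum was Gsn, at 56577 ± 4731 in SIRT5OE TAC and 52653 ± 11812 in WT TAC hearts, which passed in no comparison. Mfap5, a microfibril protein, rose with TAC in both genotypes and was lower in SIRT5OE TAC (4208 ± 3788) than WT TAC hearts (11406 ± 5811, log2 fold change -1.62, adjusted p = 0.0383 by limma). Pi16 did likewise (-1.01, adjusted p = 0.0472), and Scara5, a scavenger receptor, was higher in SIRT5OE TAC (961 ± 437) than WT TAC hearts (315 ± 209), where it fell by 2.71 on the log2 scale against WT sham hearts. The receptor Pdgfra averaged 2680.1 ± 174 in SIRT5OE TAC and 2767 ± 282 in WT TAC hearts and the transcription factor Tcf21 440.0 ± 81.6 and 504 ± 57.7, neither passing between the TAC groups. Macrophage markers ran from 6923 to 9442 in SIRT5OE TAC and from 9104 to 10732 in WT TAC hearts, and 1 of the 5 was lower in SIRT5OE TAC. Summed cardiomyocyte markers ran from 1332270 to 1959006 in SIRT5OE TAC and from 752014 to 1623138 in WT TAC hearts, with overlap. Of the 5 markers, 0 were called between these groups. The largest, Myh6, averaged 893550 ± 191370 in SIRT5OE TAC and 471203 ± 302570 in WT TAC hearts. Ryr2 and Pln also had higher means in SIRT5OE TAC, whereas Tnnt2 (334341 and 338101) and Actn2 (91168 and 101995) did not. The median mitochondrial share was 31.2% in SIRT5OE TAC and 24.4% in WT TAC hearts. The part of these shifts in the collagen values was not tested.

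The genes whose log2 values, centred over the 15 hearts, lay nearest to the mean profile of the 7 members were Enpp1 (root mean square difference 0.166 on the log2 scale), Srpx2 (0.184), Fbn1 (0.192), Fbln2 (0.192), Loxl2 (0.193) and Igfbp7 (0.202). Fbn1 encodes fibrillin-1 of microfibrils, Fbln2 a fibulin and Loxl2 a lysyl oxidase. Nearest to Col1a1 were Tgfb2 (0.179) and Uck2 (0.214), to Col1a2 Loxl2 (0.148) and Serpinf1 (0.151), to Col3a1 Bgn (0.173) and Emp1 (0.193), and to Col5a1 Loxl1 (0.122) and Fbln2 (0.132). Col5a2 lay nearest to Uck2 (0.219) and Mfap5 (0.220), and Col5a3 to Psd (0.186) and Mid1 (0.186). No gene lay close to Col11a1, the nearest being Nox4 at 0.564. Between members, the pairs Col1a2 and Col3a1 (0.153) and Col1a1 and Col1a2 (0.156) were closest and Col5a2 and Col5a3 (1.36) farthest apart. These values describe likeness over hearts that share 4 groups, and all such genes share the difference between TAC and sham.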

How the data were processed

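Whole-heart RNA of 15 mice was ribodepleted and sequenced on a HiSeq4000. The authors pseudoaligned reads with kallisto (version 0.43.1 in the submitters' processing notes, which also name mm10), summed transcripts to genes with tximport and normalized with DESeq2. The deposited signal values are these normalized counts, and neither raw counts nor counting intervals were used, so the number of hearts sets the precision. The study did its TAC operations in surgical batches. Which heart came from which is not given in the sources used here, so no within-batch value was computed.

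The 16690 genes with 10 or more normalized counts in 3 or more hearts were taken as log2(value + 1), a scale that understates fold changes of low genes. Group means (4) were fitted in R 4.3.3 by limma 3.58.1 (lmFit, eBayes with trend) over all 15 hearts. P-values were adjusted (Benjamini-Hochberg) over these genes, and called under 0.05. Ratios within a heart were compared by exact permutation tests (scipy 1.17.1). The steps were tested on simulated data. Plots were made with matplotlib 3.10.9 in Python 3.11.15.

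The members, lists and alternatives were chosen with earlier results of these data known. Named genes are the members, in each pathway list the 3 of smallest adjusted p in WT TAC against WT sham and the 2 in SIRT5OE TAC against WT TAC, every other fibrillar collagen, the 6 genes nearest the members' mean profile and the 2 nearest each member. Single markers of cell types (Pdgfra, Tcf21, Gsn, Mfap5, Pi16, Scara5, Cthrc1, Acan, Sox9, Matn1, Fap) were named after their values were seen. P4ha3 and Mmp8 were named because of how they met the filter. Of the cell type lists, 0 genes were called between the sham groups. Pericyte, smooth muscle, endothelial, mesothelial, Schwann and red blood cell lists had sums that overlapped between the TAC groups. Gene models are from GENCODE vM21 and promoters from RefSeq. The hearts are separate animals. The replicate numbers do not pair them.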

Additional observations from a re-analysis of the deposited data

Results flagged for a closer look

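In a group of 4 hearts, a heart was singled out when its gap to the next heart as a share of the group's range passed the 95% critical value of Dixon's test. Chance gives this in about 1 in 20 groups of normally distributed values. The rule was applied to untransformed normalized counts and not to the log2 values of the fits, on which gaps of high hearts are smaller. Replicate 3 of SIRT5OE TAC met this for Col5a2 (0.924 of the range, 16003 normalized counts), Col11a1 (0.876, 24.7 normalized counts) and Col1a2 (0.864, 32608 normalized counts). It was the highest SIRT5OE TAC heart for Col1a1, Col3a1 and Col5a1 as well, with gaps below that limit, and it held the highest sum of activated fibroblast markers of its group (174141). Replicate 2 of WT sham met it for Col3a1 (0.903, 10704 normalized counts). These genes share their hearts, so the 3 gaps of SIRT5OE TAC replicate 3 are not separate events.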

How the results depend on the processing

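The number of members called in WT TAC against WT sham was 6 to 7 under every alternative but the stricter filter (at least 100 in at least 3 hearts), which left out Col11a1 and called 5 of 6. It was 0 in SIRT5OE sham against WT sham and for the interaction. In SIRT5OE TAC against SIRT5OE sham, 5 were called, against 2 with a replicate block, 2 without the mean-variance trend, and 1 to 5 as each heart was left out. In SIRT5OE TAC against WT TAC, 2 were called, against 0 without a filter, with a replicate block, without the trend and in the fit of the compared groups alone, 4 with the stricter filter, 5 with array weights, and 0 to 5 as each heart was left out. Over all genes, 1208 were called there, but 231 without a filter, 20 with the block, 42 without the trend and 3 in the fit of the groups alone. The stricter filter called 12.2% and array weights 9.45% of the genes tested, against 7.24%. In SIRT5OE TAC against SIRT5OE sham, 4.98% of all tested genes were called, but 2.76% with the block and 2.58% without the trend. The replicate numbers did not pair the hearts (correlations of deviations of same-numbered hearts from -0.298 to 0.075). A linear model of the ratios with that block passed 5 of 24 comparisons: Col5a1 over Col1a1 in SIRT5OE TAC against WT TAC (adjusted p = 0.00572) and in WT TAC against WT sham (0.000127), Col5a2 over Col5a1 in WT TAC against WT sham (0.00572), and Col5a3 over Col5a1 in both TAC against sham comparisons (0.0297 in SIRT5OE and 0.00849 in WT). The exact tests could not reach this threshold. The linear model replaced them by t-tests as well as adding the block, and no linear model without the block was fitted. Its adjusted p-values therefore do not show what the block itself changed, and the ratios remain a description of the hearts.

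Estimates that changed sign were near 0, except for some of Col11a1, a gene near the limit of detection. In the main setting Col11a1 gave 0.357 in SIRT5OE sham against WT sham. Its log2 ratio over Col5a1 gave 0.303 in SIRT5OE TAC against SIRT5OE sham and 0.762 in WT TAC against WT sham. In SIRT5OE sham against WT sham, Col11a1 gave -0.235 with quantile normalization, Col1a1 -0.00485 with the replicate block and Col1a2 0.000476 with array weights. As each heart was left out, that comparison ran from -0.0327 to 0.635 for Col11a1, -0.00989 to 0.0996 for Col1a1, -0.0494 to 0.0417 for Col1a2, -0.0323 to 0.0551 for Col3a1 and -0.0626 to 0.0948 for Col5a2, the Col1a2 over Col1a1 ratio from -0.096 to 0.031, and Col5a3 in SIRT5OE TAC against SIRT5OE sham from -0.322 to 0.150. The Col11a1 over Col5a1 ratio gave -0.343 (SIRT5OE TAC against SIRT5OE sham) and -0.399 (WT TAC against WT sham) with pseudocount 5, -0.023 (SIRT5OE TAC against WT TAC) with pseudocount 0.5, and -0.342 to 0.349 in the last comparison as each heart was left out. The causes were not tested. With 3 or 4 hearts per group, the precision is limited by the spread between TAC hearts.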
